A study of Mus musculus with 3 samples.

Results

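The bone morphogenetic protein (BMP) and transforming growth factor beta (TGF-beta) pathway was described through 43 named genes: 9 ligands, 7 secreted modulators, 12 receptors and coreceptors, 1 decoy receptor, 8 Smads, 2 Smad ubiquitin ligases and the 4 Id genes. They were chosen by name, with earlier results of these data known. All 43 were found among the 23397 genes of the deposited files, and 36 reached 1 FPKM in at least 1 library. FPKM is a level scaled to transcript length and library depth (fragments for each kilobase and each 1M, or mega, mapped fragments). RNA came from endothelial cells of embryoid bodies, the floating aggregates in which mouse embryonic stem cells differentiate, sorted at day 4.75 as Tie2+CD31+CD41-. The genotypes were WT (wild type), a Scl knockout (SclKO; the gene is now named Tal1) and a knockout of Gata1 and Gata2 (Gata12KO), with 1 library each. The knockouts were carried by the stem cell lines; the number of clones is not given in the sources used.

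BMP and TGF-beta ligands are secreted dimers that bring together type I and type II receptor kinases on the cell surface. The type I kinase phosphorylates receptor-regulated Smads, which join Smad4 and enter the nucleus; Smad1, Smad5 and Smad9 serve the BMP branch and Smad2 and Smad3 the TGF-beta and activin branch. Id1, Id2 and Id3 are textbook targets of the BMP branch, and the proteins they encode bind E proteins, the partners with which Scl contacts DNA. In the embryo the pathway acts in the formation of mesoderm, blood, heart and vessels, and Acvrl1 with Eng forms a receptor pair known for its role in endothelium.

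Depth was 31.6M, 28.3M and 50.3M fragments in WT, SclKO and Gata12KO, as implied by the deposited confidence bounds. Those bounds hold no spread between replicates. For most genes with 1 entry they followed counting error, and for genes with several transcripts they can be wider, as for Eng in WT below. With 1 library per group no difference could be set against a spread between replicates, so every statement below describes these 3 libraries and carries no p-value. Tal1 was at 51.0 FPKM for WT and 1.59 for SclKO, but Gata1 (4.64 in WT and 5.66) and Gata2 (12.05 and 44.9) were not below WT in the library labelled as their knockout. Those values cover whole transcripts and would not show a deleted exon, so that sample is named only by its label, as the Gata12KO-labelled library. All 10 endothelial markers, among them Tek, Pecam1 and Cdh5, were at or above 1 FPKM in each library. Of 10 blood markers, 9 reached 1 FPKM in WT, none in SclKO and 4 in the Gata12KO-labelled library; Ptprc, the remaining one, was listed at 0 in WT and SclKO. Itga2b, which encodes the CD41 that the sort selected against, was at 22.8 FPKM for WT, 0.333 for SclKO and 17.6 for the Gata12KO-labelled library. Summed levels of marker lists differed. Endothelial markers came to 1097, 513 and 1059 FPKM in WT, SclKO and the Gata12KO-labelled library, and the blood markers to 205, 1.61 and 29.9. In the same order, 8 mesenchyme markers came to 30.3, 89.1 and 21.3, and 8 cardiac and smooth muscle markers to 64.9, 97.7 and 26.0. Acta2 (42.1, 55.1 and 11.7) and Tnni1 (10.2, 26.3 and 3.68) carried most of the muscle sum. Tnnt2, Myl4 and Nkx2-5 were also highest in SclKO. Myl7 (2.11, 2.53 and 4.56) was highest in the Gata12KO-labelled library, and Tagln and Myh6 were not higher in SclKO than in WT. The sums were 91.0, 140 and 38.9 for 8 epithelium and endoderm markers, and 7.92, 7.50 and 5.05 for 5 stem cell markers. Krt8 (40.8, 77.5 and 17.1) and Krt18 (45.2, 59.1 and 18.1) carried most of the epithelium and endoderm sum. In that list Epcam and Cdh1 had overlapping bounds in all 3 comparisons, while Ttr (2.11, 0.968 and 1.19) and Apoa1 (0.633, 0.0899 and 0.194) were lowest in SclKO. None of its 4 expressed genes was called in SclKO against WT.

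A member was called higher or lower when it reached 1 FPKM, its ratio log2((FPKM + 1)/(FPKM + 1)) differed by 2-fold or more, and the 2 deposited confidence ranges lay apart. The added 1 lowers the ratio of weakly expressed genes, so plain FPKM folds are given beside it. In SclKO against WT, 5 of the 36 members above 1 FPKM were higher (13.9%) and 2 were lower (5.56%). Over all 11080 genes above that minimum, 2.12% were higher and 4.24% lower, 6.36% in all. The higher members were the ligands Bmp4, Bmp5, Bmp7 and Tgfb2 and the coreceptor Tgfbr3, and the lower members were the ligand Bmp6 and the receptor Tgfbr2. For the Gata12KO-labelled library, none of the 36 was higher or lower than WT, where 0.767% and 3.75% of all genes were, 4.51% in all. In a sorted pool, a different number of cells that express a gene and a different amount of RNA per cell cannot be told apart.

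In SclKO against WT and in the Gata12KO-labelled library against SclKO, 5 members were called both times. Both comparisons hold the same SclKO library, so the second call is not further support. The 250 bases before the annotated starts of these 5 are shown. Bmp7 and Tgfbr3, called only in SclKO against WT, are not among them. The sequences are RefSeq's on GRCm38.p6, are written 5′ to 3′ along each gene, and end at the base before the start. Capitals mark matches to 4 motifs on either strand. The first was GATAA, the core bound by GATA factors. The second was CAGATG, an E-box that Scl binds with an E protein. The third was the Smad box, spelled CAGAC. The last was GGCGCC, a GC-rich element bound by BMP-branch Smads. No base of these windows lay in more than 1 match.
Bmp4 (chr14:46390670-46390919, reverse strand): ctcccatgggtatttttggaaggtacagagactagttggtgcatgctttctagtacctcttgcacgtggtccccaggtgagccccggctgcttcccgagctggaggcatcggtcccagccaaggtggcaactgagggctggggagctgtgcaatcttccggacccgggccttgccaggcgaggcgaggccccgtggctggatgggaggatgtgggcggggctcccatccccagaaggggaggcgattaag
Bmp5 (chr9:75775115-75775364, forward strand): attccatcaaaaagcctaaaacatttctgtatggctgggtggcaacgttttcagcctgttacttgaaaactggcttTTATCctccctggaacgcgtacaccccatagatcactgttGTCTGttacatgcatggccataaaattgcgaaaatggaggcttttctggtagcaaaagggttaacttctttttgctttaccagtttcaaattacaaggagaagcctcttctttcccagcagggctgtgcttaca
Bmp6 (chr13:38345466-38345715, forward strand): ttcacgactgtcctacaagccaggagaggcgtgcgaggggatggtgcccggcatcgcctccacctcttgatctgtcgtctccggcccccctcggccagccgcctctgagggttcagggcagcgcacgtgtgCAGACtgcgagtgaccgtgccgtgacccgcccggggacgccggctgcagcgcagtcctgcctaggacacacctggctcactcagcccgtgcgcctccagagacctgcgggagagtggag
Tgfb2 (chr1:186705990-186706239, reverse strand): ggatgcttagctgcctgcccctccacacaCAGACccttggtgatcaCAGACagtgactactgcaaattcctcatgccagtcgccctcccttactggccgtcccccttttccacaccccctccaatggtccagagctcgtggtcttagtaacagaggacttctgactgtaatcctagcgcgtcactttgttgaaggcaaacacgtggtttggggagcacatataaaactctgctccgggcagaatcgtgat
Tgfbr2 (chr9:116175364-116175613, reverse strand): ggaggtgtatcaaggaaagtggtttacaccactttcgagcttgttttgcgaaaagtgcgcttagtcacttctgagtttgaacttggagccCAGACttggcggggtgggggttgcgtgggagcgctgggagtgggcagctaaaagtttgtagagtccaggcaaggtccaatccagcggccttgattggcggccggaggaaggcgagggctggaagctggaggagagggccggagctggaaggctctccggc
Bmp5 held 1 GATAA and 1 CAGAC, Bmp6 and Tgfbr2 held 1 CAGAC each, Tgfb2 held 2, and Bmp4 held none of the 4 strings. Over 32851 annotated mouse promoters of the same length, 42.2% held CAGAC, 22.6% GATAA, 14.4% CAGATG and 9.59% GGCGCC. Of 37 promoters listed for 31 of the members, 18 held CAGAC (48.6%), 10 held GGCGCC (27%), 3 held CAGATG (8.11%) and 2 held GATAA (5.41%). These matches describe letters in a window, and the files hold no measurement of binding there.

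Of the 5 BMP ligands, 4 were called in SclKO against WT, 3 of them higher. Bmp4, a ligand required for mesoderm and for early blood (chromosome 14, 47003196 to 47010274 on the reverse strand of mm9, 4 exons), was at 9.44 FPKM for WT (8.63 to 10.3), at 22.7 for SclKO (21.4 to 24.1) and at 6.30 for the Gata12KO-labelled library (5.78 to 6.82). SclKO was the highest of the 3, 2.41-fold above WT, and none of the bounds overlapped. Bmp4 shares exon bases with Gm15217, a transcript on the opposite strand, whose level was at most 0.996 FPKM in any library; the sources used do not say whether reads were assigned by strand.

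Bmp5 (chromosome 9, 75623172 to 75746824, forward strand, 7 exons), a ligand that acts with Bmp7 in the early heart, was at 4.20 FPKM for WT (3.72 to 4.68), at 16.7 for SclKO (15.7 to 17.7) and at 3.68 for the Gata12KO-labelled library (3.33 to 4.03). The 3.97-fold ratio of SclKO to WT, 1.77 on the log2 scale, ranked 48 among the 11080 genes in order from the highest, while WT and the Gata12KO-labelled library overlapped. Bmp7 (chromosome 2, 172695189 to 172765794, reverse strand, 7 exons), its close relative, was at 0.888 FPKM for WT (0.637 to 1.14), at 4.58 for SclKO (3.98 to 5.19) and at 2.06 for the Gata12KO-labelled library (1.76 to 2.36). Bmp7 was thus higher than WT in both other libraries, 5.16-fold in SclKO and 2.32-fold in the Gata12KO-labelled library, and the second of these stayed under the 2-fold limit on the log2 scale (0.70). With a pseudocount of 0.1 it passed (1.13), and it rested on 50 implied fragments in WT. With a minimum of 5 FPKM the SclKO call of Bmp7 ended, since no library reached that level.

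Bmp6, a ligand also known for control of iron in liver, went the other way. It was at 1.93 FPKM for WT (1.60 to 2.27), at 0.240 for SclKO (0.116 to 0.364) and at 1.78 for the Gata12KO-labelled library (1.53 to 2.03), and its 7 exons span 38437585 to 38591597 of chromosome 13 (forward strand). SclKO was the low library, 8.07-fold below WT, on 15 implied fragments against 136, and its call also ended with that minimum. Bmp2, which patterns the heart cushions, did not follow either course: it was at 10.3 FPKM for WT (9.59 to 11.1), at 9.37 for SclKO (8.62 to 10.1) and at 12.0 for the Gata12KO-labelled library (11.4 to 12.6), and WT and SclKO overlapped.

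Added together, the 5 BMP ligands had 26.8 FPKM for WT, 53.6 for SclKO and 25.8 for the Gata12KO-labelled library. Their make-up differed as well. Bmp2 was the most abundant in WT (38.6% of the sum) and in the Gata12KO-labelled library (46.5%), and Bmp4 was the most abundant in SclKO (42.4%), where Bmp5 made up a further 31.1%. The higher BMP ligands moved with the mesenchyme, muscle, and epithelium and endoderm sums given above, each highest in SclKO. The endothelial and blood sums were each lowest there. Acta2 and Tnni1 carried most of the muscle sum, and Krt8 and Krt18 most of the epithelium and endoderm sum. The part of these sums in the result was not tested.

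**Figure D1:**
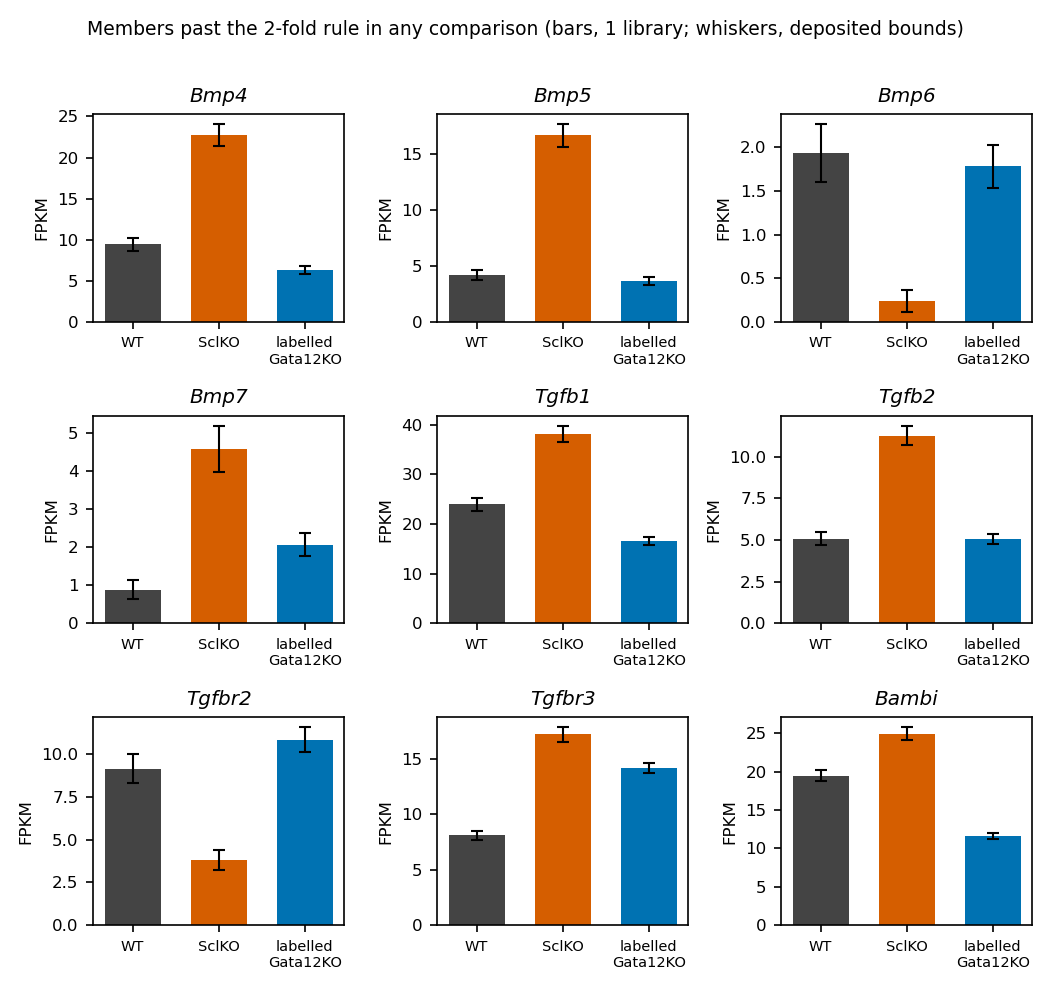
FPKM (y axis, from 0, a scale per gene) in WT, SclKO and the Gata12KO-labelled library for the 9 members called in any of the 3 comparisons. Each bar is 1 library and whiskers are the deposited bounds, which hold no spread between replicates. Bmp4, Bmp5, Bmp7, Tgfb1 and Tgfb2 were highest in SclKO and Bmp6 and Tgfbr2 lowest there, while Bambi was lowest in the Gata12KO-labelled library.

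Of the TGF-beta ligands, Tgfb1 was the main transcript in every library. It was at 24.0 FPKM for WT (22.7 to 25.2), at 38.1 for SclKO (36.4 to 39.8) and at 16.6 for the Gata12KO-labelled library (15.8 to 17.4), and its 7 exons span 26472021 to 26490015 of chromosome 7 (forward strand). The 3 libraries were apart from one another, and SclKO was 1.59-fold above WT, under the 2-fold limit. Tgfb2 (chromosome 1, 188447065 to 188529871, reverse strand, 7 exons), a ligand of heart valve formation, was at 5.08 FPKM for WT (4.70 to 5.46), at 11.3 for SclKO (10.7 to 11.9) and at 5.08 for the Gata12KO-labelled library (4.78 to 5.38). SclKO alone was high, and its log2 ratio to WT of 1.01 lay just inside the limit. The call ended with scaling by the sum of all FPKM in a library (0.88) and when the trend of ratios with transcript length was removed (0.97). Tgfb3 (0.178, 0.300 and 0.173 FPKM in WT, SclKO and the Gata12KO-labelled library) stayed under the minimum, and the activin subunit Inhba was listed at 0 in WT and in the Gata12KO-labelled library and had 0.0266 in SclKO.

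Among the members, genes of secreted proteins that hold ligands back or store them were weakly expressed apart from Ltbp1. Ltbp1, which anchors latent TGF-beta in the matrix, was at 6.77 FPKM for WT (6.44 to 7.12), at 12.1 for SclKO (11.4 to 12.8) and at 5.65 for the Gata12KO-labelled library (4.85 to 6.46). SclKO was 1.78-fold above WT, and the short transcript, listed at 2.8e-05 FPKM in WT, had 1.38 FPKM in SclKO; both transcripts end at the same place, and how reads split among them is uncertain. Bmper, a BMP-binding protein made by endothelial cells, was at 2.05 FPKM for WT (1.78 to 2.31), at 0.866 for SclKO (0.681 to 1.05) and at 1.49 for the Gata12KO-labelled library (1.31 to 1.67). It was lowest in SclKO, 2.36-fold below WT, with a log2 ratio of -0.71 that passed the limit only with the pseudocount of 0.1 (-1.15). The BMP antagonist Nog had 1.93, 1.42 and 0.974 FPKM in WT, SclKO and the Gata12KO-labelled library, and Ltbp3 had 1.82, 1.55 and 1.04; in each, WT and SclKO overlapped and the Gata12KO-labelled library was below WT. The antagonists Chrd (0.266 to 0.333 FPKM), Fst (0.382 to 0.413) and Grem1 (listed at 0 in WT and at most 0.0491) were under the minimum in every library.

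No type I receptor was called in any comparison. Acvrl1, the type I receptor typical of endothelium, was at 29.2 FPKM for WT (28.2 to 30.2), at 31.8 for SclKO (30.6 to 32.9) and at 31.2 for the Gata12KO-labelled library (30.4 to 32.1). The ratios to WT were 1.09-fold and 1.07-fold, with bounds apart. Of the 10 endothelial markers, 5 were called lower in SclKO against WT (Cdh5, Tie1, Esam, Erg and Ramp2) and 5 were not. Tgfbr1, the type I receptor for TGF-beta, had 12.9, 12.7 and 11.7 FPKM in WT, SclKO and the Gata12KO-labelled library, with WT and SclKO overlapping. Bmpr1a, the broadly expressed BMP receptor, was at 19.2 FPKM for WT (18.5 to 19.9), at 20.9 for SclKO (20.2 to 21.6) and at 36.3 for the Gata12KO-labelled library (35.5 to 37.0). Here the Gata12KO-labelled library stood out, 1.89-fold above WT, with a log2 ratio of 0.88 under the limit. The activin receptor Acvr1b had 1.98, 3.77 and 3.28 FPKM and the BMP receptor Acvr1 7.88, 10.2 and 8.94 in WT, SclKO and the Gata12KO-labelled library; bounds of Acvr1 overlapped in all 3 comparisons. Bmpr1b was near 0 in each, at most 0.0963 FPKM.

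The receptor called lower in SclKO was Tgfbr2, the type II receptor for TGF-beta. It was at 9.16 FPKM for WT (8.32 to 10.0), at 3.81 for SclKO (3.22 to 4.40) and at 10.9 for the Gata12KO-labelled library (10.1 to 11.6), at chromosome 9, 115996813 to 116084481 on the reverse strand. SclKO was the low library, 2.41-fold below WT (-1.08 on the log2 scale), and both annotated transcripts were lower there: the transcript of 8 exons was at 2.75 FPKM for WT and 1.25 for SclKO, and that of 7 exons at 6.41 and 2.56. Of 9 alternatives, the call ended with 1, a scaling by the FPKM sum of transcripts at least 300 nt long (-0.95). Bmpr2, the type II receptor for BMPs, was above WT in both other libraries without passing the limit, at 10.7 FPKM for WT (10.0 to 11.3), 19.6 for SclKO (18.7 to 20.6) and 19.1 for the Gata12KO-labelled library (18.4 to 19.7). Among type II receptors Bmpr2 made up 37.8% of the summed FPKM in WT and 57.3% in SclKO, and Tgfbr2 32.4% and 11.1%. The activin receptors Acvr2a (3.26, 3.31 and 4.17 FPKM in WT, SclKO and the Gata12KO-labelled library) and Acvr2b (5.17, 7.53 and 6.39) were not called in any comparison.

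Of the coreceptors, Tgfbr3 (betaglycan, which presents TGF-beta to its receptors; chromosome 5, 107535589 to 107718614, reverse strand, 17 exons) was at 8.09 FPKM for WT (7.68 to 8.51), at 17.2 for SclKO (16.6 to 17.8) and at 14.2 for the Gata12KO-labelled library (13.7 to 14.6). Both other libraries were above WT, SclKO by 2.13-fold, and its log2 ratio of 1.00 was the call nearest the limit. It fell to 0.87 after rescaling to summed FPKM and 0.89 with the length trend removed. Just outside the limit stood Id2 (0.92) and Bmpr2 (0.82). Eng, the endothelial coreceptor endoglin, was at 28.2 FPKM for WT (19.4 to 36.9), at 46.0 for SclKO (43.2 to 48.8) and at 28.8 for the Gata12KO-labelled library (27.2 to 30.3), so that SclKO was above both. In WT the bounds of 2 of its 3 transcripts were wide (16.7 to 25.1 and 1.29 to 9.68). Eng shares exon bases with Fpgs on the opposite strand, and the 2 genes overlap only from 32538129 to 32538189 of chromosome 2. Fpgs had 7.01, 13.1 and 8.60 FPKM in WT, SclKO and the Gata12KO-labelled library and so was also highest in SclKO. Whether reads of the shared bases were assigned by strand is not stated in the sources used. Chrd and Acvr2a likewise share exon bases with Thpo and Orc4.

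**Figure D2:**
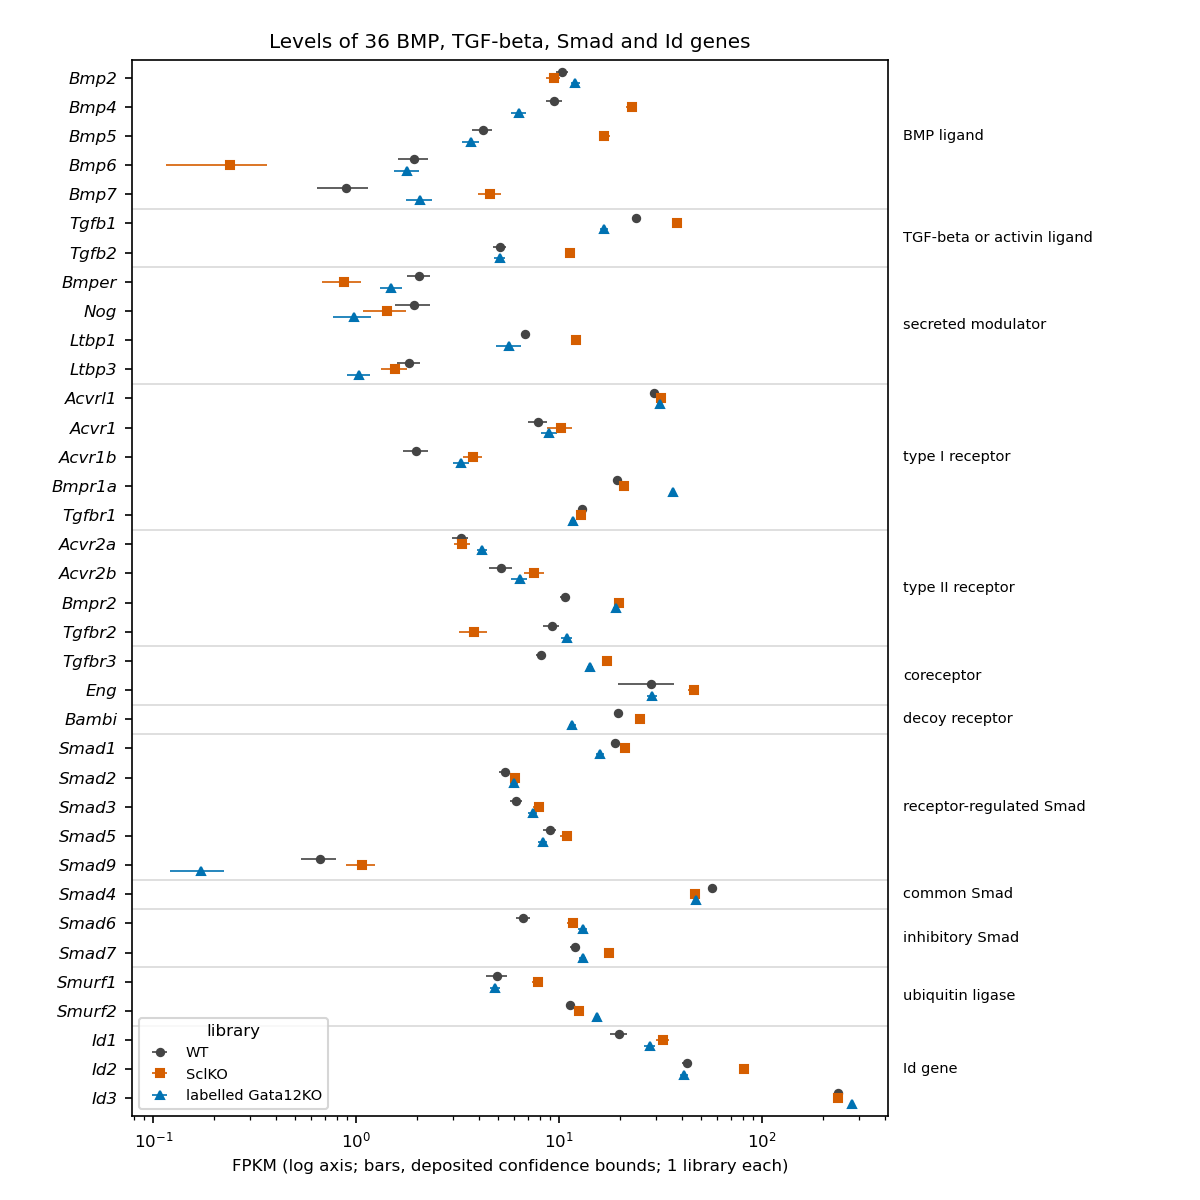
FPKM on a log axis for the 36 members that reached 1 FPKM in at least 1 library, grouped by role; circles are WT, squares SclKO and triangles the Gata12KO-labelled library, and bars are the deposited bounds. Id3 (235 to 277 FPKM) and Smad4 (46.6 to 56.4) were among the most abundant members, and Bmp6, Bmp7 and Smad9 among the least.

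Bambi, a receptor without a kinase that blocks signalling, was at 19.4 FPKM for WT (18.7 to 20.2), at 24.9 for SclKO (24.1 to 25.8) and at 11.6 for the Gata12KO-labelled library (11.2 to 12.0), at chromosome 18, 3507955 to 3516402 on the forward strand. It was lowest in the Gata12KO-labelled library, 1.68-fold below WT and 2.15-fold below SclKO.

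None of the Smads that carry the signal was called. Smad4, the partner common to both branches, was at 56.4 FPKM for WT (54.8 to 57.9), at 46.6 for SclKO (45.2 to 48.1) and at 47.2 for the Gata12KO-labelled library (46.1 to 48.3), slightly below WT in both. In WT, SclKO and the Gata12KO-labelled library, the BMP-branch Smad1 had 18.9, 21.0 and 15.9 FPKM and Smad5 8.99, 10.9 and 8.27. The TGF-beta-branch Smad2 had 5.40, 6.06 and 5.96 and Smad3 6.13, 7.93 and 7.38. The log2 ratios to WT of these 4 ranged from -0.24 to 0.32. Smad9, the third BMP-branch Smad, was much weaker, at 0.664 FPKM for WT (0.537 to 0.792), 1.06 for SclKO (0.894 to 1.23) and 0.172 for the Gata12KO-labelled library (0.121 to 0.223). The 3 libraries did not overlap, and the Gata12KO-labelled library was 3.87-fold below WT on 45 implied fragments, a difference that the pseudocount brought to -0.51 on the log2 scale.

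The inhibitory Smads, which block receptors and are themselves induced by the pathway, were higher than WT in SclKO without passing the limit. Smad6, which acts on the BMP branch, was at 6.66 FPKM for WT (6.11 to 7.21), at 11.6 for SclKO (10.9 to 12.4) and at 13.0 for the Gata12KO-labelled library (12.4 to 13.6). Smad7, which acts on both branches, had 11.9 (11.4 to 12.5), 17.5 (16.8 to 18.3) and 13.1 (12.6 to 13.6). SclKO was 1.75-fold and 1.47-fold above WT for Smad6 and Smad7, and the Gata12KO-labelled library was 1.96-fold above WT for Smad6 and 1.09-fold for Smad7. The ubiquitin ligases that degrade Smads and receptors were Smurf1, with 4.95, 7.82 and 4.83 FPKM in WT, SclKO and the Gata12KO-labelled library, and Smurf2, with 11.3, 12.6 and 15.4. Smurf1 was highest in SclKO and Smurf2 in the Gata12KO-labelled library. One of the 2 transcripts of Smurf1 had 1.52 FPKM in WT and at most 8.5e-04 in the other libraries, but the 2 differ by 9 nt in length and their split is uncertain.

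Id3 was by far the most abundant of all 43 members in each library. It was at 235 FPKM for WT (229 to 241), at 237 for SclKO (230 to 243) and at 277 for the Gata12KO-labelled library (271 to 282), at chromosome 4, 135699737 to 135701307 on the forward strand. WT and SclKO overlapped. Id2 was at 42.5 FPKM for WT (40.3 to 44.8), at 81.5 for SclKO (78.2 to 84.7) and at 41.1 for the Gata12KO-labelled library (39.4 to 42.8), at chromosome 12, 25778664 to 25780957 on the reverse strand. SclKO was high, 1.91-fold above WT and 1.98-fold above the Gata12KO-labelled library, which overlapped WT. Id1 was at 19.6 FPKM for WT (17.8 to 21.5), at 32.3 for SclKO (29.8 to 34.9) and at 28.0 for the Gata12KO-labelled library (26.2 to 29.7), at chromosome 2, 152562010 to 152563146 on the forward strand. Both other libraries were above WT, by 1.65-fold and 1.43-fold. Id4 stayed below 1 FPKM in each, with 0.815, 0.532 and 0.339. Id3 made up 78.9% of the summed Id FPKM in WT, 67.4% in SclKO and 79.9% in the Gata12KO-labelled library.

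The Id transcripts are among the shortest members (911 nt for Id1, 953 for Id3 and 1272 for Id2), and ratios in these files followed length. For genes of 312 to 1733 nt the median log2 ratio was -0.23 in SclKO against WT and -0.43 in the Gata12KO-labelled library against WT, and for genes of 4177 to 23495 nt it was 0.08 and 0.11. Relative to genes of like length, the log2 ratios to WT of Id1 were 1.00 in SclKO (0.69 as deposited) and 1.01 in the Gata12KO-labelled library (0.49), those of Id2 were 1.11 (0.92) and 0.33 (-0.05), and those of Id3 were 0.33 (0.01) and 0.74 (0.23). By this measure Id1 and Id2 passed the 2-fold limit in SclKO and Id1 in the Gata12KO-labelled library, which they did not as deposited.

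**Figure D3:**
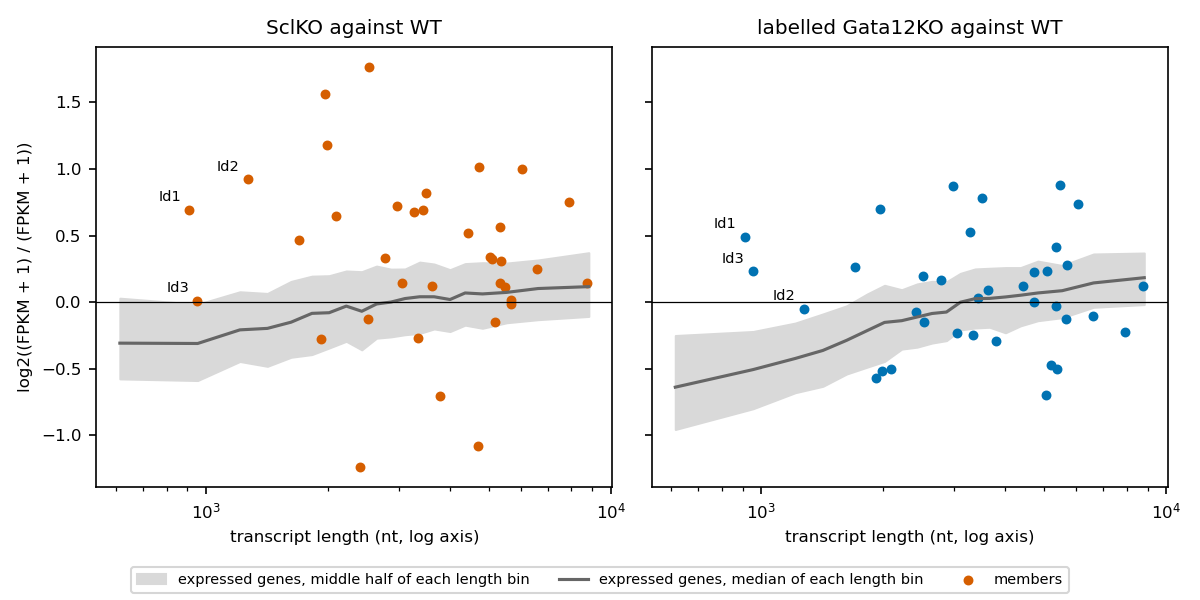
Log2 ratio against transcript length (log axis) in SclKO against WT (left) and the Gata12KO-labelled library against WT (right); points are members, the line is the median of expressed genes in each of 20 length bins and the band runs from their lower to their upper quartile. The 3 short Id transcripts sat above the line for their length in both panels, while the line itself ran from below 0 for short transcripts to above 0 for long ones.

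Read as a whole, 28 of the 36 members had a positive and 8 a negative log2 ratio in SclKO against WT, with a median of 0.33 (0.14 over all 43), where the median of all 11080 genes was -0.03 and 46.7% were positive. Bounds were apart from WT for 28 of the 36, 24 of them upward, and for 58% of all genes. With libraries rescaled to summed FPKM, 24 of the 36 were positive and the median was 0.22, and with transcripts of 300 nt or longer as the sum, 30 were positive and it was 0.45. In the Gata12KO-labelled library against WT, 20 were positive and 16 negative with a median of 0.06 (0.01 over all 43), against -0.08 for all genes. Bounds were apart for 25 of the 36, 15 of them upward, and for 61.8% of all genes. That balance depended on the scaling: 32 were positive after rescaling to summed FPKM, with a median of 0.71, when the median of all genes moved up by 0.58, and 29 with the 300 nt sum. Of the members below WT as deposited, 12 were above it with summed FPKM, namely Bmp4, Bmp5, Bmp6, Tgfb1, Bmper, Ltbp1, Tgfbr1, Smad1, Smad4, Smad5, Smurf1 and Id2, so the direction of these against WT is not settled. Bambi, Nog, Ltbp3 and Smad9 were below WT under each scaling. With summed FPKM their log2 ratios were -0.05, -0.18, -0.07 and -0.35, so Bambi and Ltbp3 were then close to WT. With summed FPKM, 8 members were called higher than WT in the Gata12KO-labelled library (Bmp7, Acvr1b, Bmpr1a, Bmpr2, Tgfbr3, Smad6, Smurf2 and Id1), and with the 300 nt sum 4 (Bmpr1a, Bmpr2, Tgfbr3 and Smad6). In SclKO against WT, 4 members close to 0 changed sign with summed FPKM (Acvrl1, Bmpr1a, Acvr2a and Id3).

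**Figure D4:**
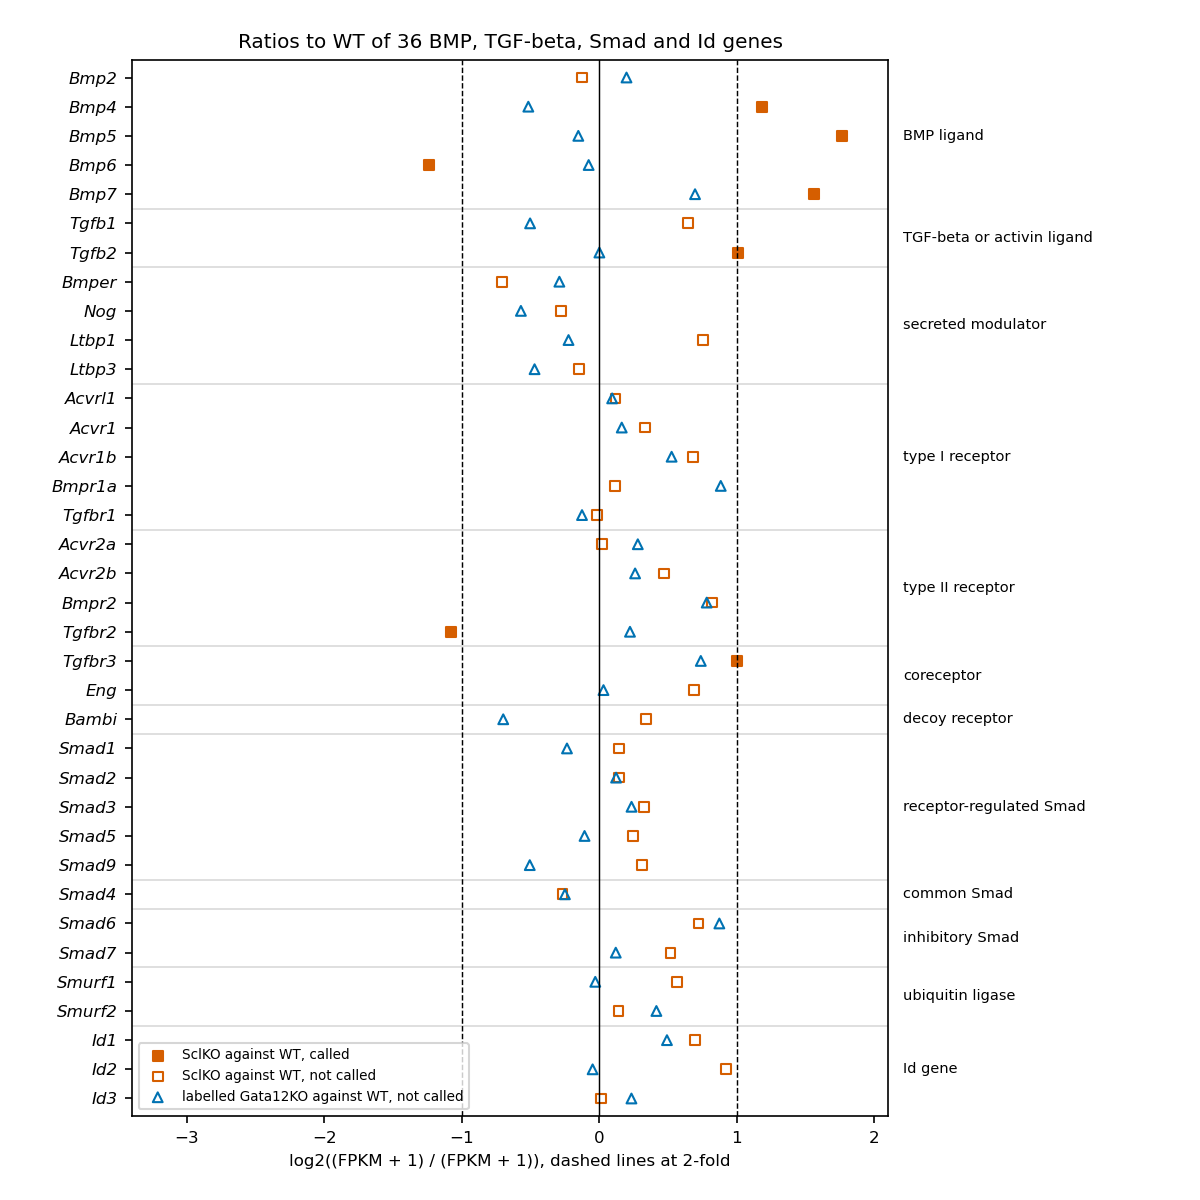
Log2 ratio to WT (x axis; dashed lines at 2-fold) for the 36 members by role; squares are SclKO and triangles the Gata12KO-labelled library, filled where the member was called. The 7 filled squares are Bmp4, Bmp5, Bmp7, Tgfb2 and Tgfbr3 on the right and Bmp6 and Tgfbr2 on the left, and no triangle is filled.

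The comparison of the Gata12KO-labelled library with SclKO shares a library with each of the comparisons above, and its values are given beside them and not as further support. Of the 36 members, 2 were higher (5.56%, with 3.38% of all genes), namely Bmp6 (7.42-fold) and Tgfbr2 (2.85-fold), and 5 were lower (13.9%, with 3.75% of all genes; 7.14% in either direction). Bounds were apart for 27 of the 36 and for 58.3% of all genes. The lower members were Bmp4 (3.61-fold), Bmp5 (4.54-fold), Tgfb1 (2.29-fold), Tgfb2 (2.22-fold) and Bambi (2.15-fold). Rescaling to summed FPKM ended the calls of Bmp4 (-0.96), Tgfb1 (-0.36), Tgfb2 (-0.29) and Bambi (-0.27), and left Bmp5 lower and Bmp6 and Tgfbr2 higher.

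Other genes of the pathway were taken from lists chosen by function, with earlier results of these data known. Counts from these lists therefore describe the lists and are not independent support. Over all genes, 2.12% were called higher and 4.24% lower in SclKO against WT. For the Gata12KO-labelled library against WT the shares were 0.767% and 3.75%. Of 22 further ligands only 3 reached 1 FPKM and none was called in any comparison. Of 12 expressed secreted modulators 2 were lower in SclKO against WT and none was called in the Gata12KO-labelled library against WT. The 2 were Fbn1 (fibrillin, which stores latent TGF-beta), with 34.5 FPKM for WT, 14.2 for SclKO and 33.0 for the Gata12KO-labelled library, and the antagonist Sost (2.83, 0.644 and 6.59). In the Gata12KO-labelled library Sost was 2.33-fold above WT, with a log2 ratio of 0.99 just under the limit, and 10.2-fold above SclKO. The protease gene Bmp1 (8.65, 14.9 and 9.24 FPKM) and the proteoglycan gene Bgn (8.20, 9.24 and 4.90) were not called against WT. Of 7 further receptors and coreceptors 1 was higher in SclKO, Ror2 (0.961, 4.78 and 1.56 FPKM). The coreceptors Cfc1, which serves Nodal (57.7, 80.5 and 28.8 FPKM), and Nrp1 (56.4, 113 and 38.0) were not called against WT. Both came close: Nrp1 was 2.01-fold above WT in SclKO (log2 ratio 0.99), and Cfc1 2.00-fold below WT in the Gata12KO-labelled library (-0.98). In the Gata12KO-labelled library against SclKO both were called lower.

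Of 31 expressed Smad partners and regulators, 1 was called in either comparison with WT. It was Foxh1, the DNA-binding partner of Smad2 in Nodal signalling, with 3.34 FPKM for WT, 15.3 for SclKO and 10.2 for the Gata12KO-labelled library, and it was higher in both. Among genes of 5 FPKM or more, next in size of ratio came Fkbp1a, whose product binds type I receptors (380, 232 and 303 FPKM). The zinc finger gene Zfp423 (15.7, 24.7 and 10.4) and Tab2 (36.2, 25.0 and 28.3) followed. Pmepa1, under that minimum, had 1.06, 1.82 and 0.269 FPKM, with a log2 ratio to WT of -0.70 in the Gata12KO-labelled library. None of these 4 was called against WT. The 3 E protein genes that Id proteins act on were not called: Tcf3 had 18.5, 27.3 and 22.2 FPKM, Tcf12 10.06, 14.5 and 17.3, and Tcf4 4.01, 4.84 and 5.03 in WT, SclKO and the Gata12KO-labelled library.

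Of 23 expressed genes reported as targets of BMP or TGF-beta, 4 were higher and none lower in SclKO against WT. In the Gata12KO-labelled library the counts were 0 and 4. Over all genes the shares higher and lower were 2.12% and 4.24% in SclKO, and 0.767% and 3.75% in the Gata12KO-labelled library. The higher genes were Hand1, a heart and extraembryonic mesoderm factor (72.2 FPKM for WT, 209 for SclKO and 61.7 for the Gata12KO-labelled library), Snai2, a factor of epithelial-mesenchymal transition (11.3, 31.8 and 5.36), the matrix protein gene Tgfbi (8.48, 20.2 and 3.01) and Sox9 (0.375, 2.68 and 0.439). The lower genes were Tgfbi, Tbx2 (3.97, 8.34 and 1.15), Col1a1 (9.66, 16.2 and 4.19) and Acta2, smooth muscle actin (42.1, 55.1 and 11.7). Ror2, Pmepa1, Sox9, Tbx2 and Col1a1 were named after their values were seen. Col1a1 is also in the mesenchyme marker list and Acta2 in the muscle list, and these sums, like that of epithelium and endoderm, were highest in SclKO and lowest in the Gata12KO-labelled library; their part in these results was not tested.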

How the data were processed

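RNA-seq of 3 libraries, 1 per group, was analysed from the authors' deposited values. Groups came from the labels' genotype field. Per the file headers, Cufflinks wrote an FPKM with lower and upper bounds for each of 30123 RefSeq entries. The submitters' processing notes list TopHat2 2.0.4, Cufflinks 2.0.1, Cuffdiff and the builds mm9 and hg19, without saying what each was used for. Libraries were made with a Nugen Encore Complete kit and read as 50 nt reads, per the labels' protocols.

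Accessions were matched to symbols with RefSeq's table on GRCm38.p6 (29026 of 29610) and GENCODE M21 (177); coordinates are the files' own on mm9. A set of 134 entries whose symbols differed between files was left out. FPKM and bounds were summed per symbol (Python 3.11.15, pandas 2.3.3). Depth was fitted from the bounds of genes with 1 entry and at least 100 fragments, taking bounds as 2 Poisson standard deviations from FPKM. Of these, 94.3% to 94.5% lay within 1% of the fit. The call rule was FPKM of at least 1, 2-fold on log2(FPKM + 1), and separate bounds. It was run on simulated counts that held counting error only, without spread between replicates. For SclKO against WT, changes were set only in genes with a higher WT level than any member called there. The simulation therefore does not show how reliable those calls are. No test across samples was possible. Members given in full were those called in any comparison, and listed pathway genes were named by size of ratio (at most 4 per list, at 5 FPKM or more); other named genes were chosen after their values were seen. Members and lists were chosen with earlier results of these data known. Alternatives changed the pseudocount, the minimum, the scaling, the length trend (running median over 501 genes) and the summing of transcripts.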

Additional observations from a re-analysis of the deposited data

How the results depend on the processing

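No paired analysis was possible because each group had 1 library. Bmp4 and Bmp5 stayed higher in SclKO against WT under all 9 alternatives. Calls higher in SclKO against WT went from 5 to 4 with a minimum of 5 FPKM (Bmp7 lost), to 3 after rescaling to summed FPKM and to 13 with a fold limit of 1.5, an alternative added after seeing the data; calls lower went from 2 to 1 with a minimum of 5 FPKM and to 1 with scaling to transcripts of 300 nt or longer. In the Gata12KO-labelled library against WT, 0 members were called as deposited, but calls higher became 1 with a pseudocount of 0.1, 8 after rescaling to summed FPKM, 4 with the 300 nt sum, 1 with the length trend removed and 5 with a fold limit of 1.5, which also gave 1 lower. Against SclKO, calls higher went from 2 to 1 (minimum of 5 FPKM) and 6 (summed FPKM), and calls lower from 5 to 8 (pseudocount of 0.1), 1 (summed FPKM), 2 (300 nt sum), 3 (median ratios) and 11 (fold limit of 1.5). No called ratio changed sign. Summed FPKM rests mostly on entries under 300 nt, which made up 66.7% for WT and 56.5% for the Gata12KO-labelled library. Over all genes that scaling gave 1166 higher and 97 lower in the Gata12KO-labelled library against WT, where 85 and 415 were called as deposited.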
